A study of Mus musculus with 8 samples.

Results

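The MHC class I antigen presentation pathway was followed in mouse bone cells through 10 of the 32285 genes in the count matrices. The members were chosen by symbol, as the rows named H2-K1, H2-D1, B2m, Tap1, Tap2, Tapbp, Psmb8, Psmb9, Psmb10 and Nlrc5, and all 10 were found in each of the 8 matrices. The study profiled single cells from the femurs and tibiae of female mice after the marrow had been flushed out, the periosteum scraped off and haematopoietic cells depleted with magnetic beads. Mutant mice were Sox4fl/fl Sox11fl/fl Sox12fl/fl OsxCre, in which OsxCre, a Cre transgene under the osterix promoter that doxycycline switches off, deletes the 3 floxed genes chiefly in cells of the osteoblast line. Control mice carried the same floxed alleles without Cre, and doxycycline kept the transgene silent early in life. There were 4 groups of 2 mice each, control and mutant at 7 weeks and control and mutant at 13 weeks, with 1 library per mouse. Because the controls lacked Cre, the presence of the transgene and the loss of the SOXC genes cannot be told apart.

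MHC class I molecules show peptides from inside the cell to CD8+ T cells. H2-K1 and H2-D1 are the classical heavy chains and B2m is the light chain they need to reach the cell surface. The immunoproteasome subunits Psmb8, Psmb9 and Psmb10 replace the constitutive catalytic subunits Psmb5, Psmb6 and Psmb7 when interferon acts on a cell, the transporter made of Tap1 and Tap2 carries the peptides into the endoplasmic reticulum, and tapasin (Tapbp) holds the empty class I molecule at the transporter. Nlrc5 is a transcriptional activator that works at the promoters of class I genes, whereas interferon acts through other factors at elements of its own.

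In GRCm38.p6 coordinates, 7 of the 10 genes lay within 1.348 Mb of chromosome 17, the MHC region, while Psmb10 and Nlrc5 were on chromosome 8 and B2m on chromosome 2. RefSeq promoters, from 250 bases before to 50 bases after the annotated start, were matched for 8 of the 10 members, all but Tap2 and Nlrc5. The stretches below lie upstream of a transcript start in the promoter table and are shown because they hold the kinds of element through which interferon and Nlrc5 are known to act. Capitals mark matches on either strand to the core of the interferon-stimulated response element (GAAA, any 2 bases, GAAA), GAANNGAAA (a similar, shorter pattern), the NF-kB element (GGGA, any 4 bases, CCC), TGACG (the core of the X2 box) and CCAAT, which on the opposite strand reads ATTGG.
B2m (chr2:122147538-122147648, plus strand): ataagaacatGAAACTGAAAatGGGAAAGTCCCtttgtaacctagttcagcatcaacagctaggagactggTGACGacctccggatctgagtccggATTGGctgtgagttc
H2-D1 (chr17:35262934-35263055, plus strand): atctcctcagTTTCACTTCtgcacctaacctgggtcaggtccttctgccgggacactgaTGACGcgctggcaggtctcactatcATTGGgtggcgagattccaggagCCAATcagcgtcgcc
H2-K1 (chr17:34000334-34000447, minus strand): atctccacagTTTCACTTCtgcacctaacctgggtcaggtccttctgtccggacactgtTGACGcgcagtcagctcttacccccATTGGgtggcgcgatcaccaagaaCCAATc
Tap1 (chr17:34187324-34187484, plus strand): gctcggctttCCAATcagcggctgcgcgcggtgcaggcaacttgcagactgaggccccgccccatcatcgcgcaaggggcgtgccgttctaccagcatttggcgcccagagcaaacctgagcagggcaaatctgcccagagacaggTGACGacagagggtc

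Among all 32851 promoters in the RefSeq table, the response element core was found in 3.443%, GAANNGAAA in 7.516%, the NF-kB element in 5.86%, TGACG in 20.812% and CCAAT in 37.408%. Of the 8 member promoters, 1 held the response element core, 2 GAANNGAAA, 1 the NF-kB element, 5 TGACG and 6 CCAAT, and the stretch upstream of Tap1 also lies at the start of Psmb9 on the opposite strand. In B2m, H2-D1 and H2-K1 the first base of TGACG lay 25 bases before the first base of ATTGG. This spacing, noticed after the sequences had been read, occurred in 31 of the 32851 promoters (0.0944%) and in 1 of 9 other class I promoters, that of H2-M3. For H2-K1 the table has a pair of starts, and the annotated gene (chr17:33996012-34000619) reaches past the stretch shown, which lies before the more downstream start. A match is a run of letters and was not tested as a binding site.

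The 8 libraries held between 81894604 and 156090286 UMIs (unique molecular identifiers, each counting 1 captured transcript), and 6410 to 8753 cells per library remained after filtering. Replicate 1 libraries were deeper than replicate 2 libraries in every group, at 127864255 to 156090286 against 81894604 to 89283370 UMIs. Cells were clustered without the members and without other class I, class II and interferon genes, and each cluster was named from marker genes, so a name such as OB (osteoblast), preOB, Lepr+ MSC (mesenchymal stromal cell), OP (osteoprogenitor) or GPC (growth plate chondrocyte) stands throughout for an OB-like, preOB-like or other marker-based call. The class named granulocytes or monocytes was led by Prtn3, Mpo, Elane and Ctsg, and the name stands for precursor-like cells of these lines. Sox4, the most abundant targeted gene, was lower in every mutant than in every control mouse in Lepr+ MSC, Lepr+ OP, preOB and OB cells (OB 178 to 198 against 49.9 to 79.0 CPM, depth-scaled counts over all UMIs of a cell type in 1 mouse), and overlapped in Sca1+ MSC (189 to 371 against 82.5 to 190 CPM) and endothelial cells. The library labelled replicate 1 of the 13-week controls was the highest of all mice in 91 of 140 pairs of member and cell type (9 of 10 members in Lepr+ MSC, 9 in OB and 10 in endothelial cells). The share of all genes for which it was highest is not given here, so this count is not a result about the pathway alone. Calls and medians that this library carries are given with and without it, and whether its processing differed is not stated in the sources used here.

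Class I heavy chain and light chain transcripts were highest in the Lepr+ marrow stromal cells and progressively lower in osteoprogenitors, preosteoblasts, osteoblasts and chondrocytes. Sca1+ MSC, another stromal class, had lower means over both genotypes, 823 CPM of H2-K1, 1161 of H2-D1 and 1378 of B2m. H2-K1 had 4811, 5409 and 6076 CPM (lowest, median and highest of 8 mice) in Lepr+ MSC, 3340, 4015 and 4396 in Lepr+ OP, 1720, 1987 and 2384 in preOB and 422, 549 and 837 in OB. The 4 ranges did not overlap. The step from Lepr+ MSC to Lepr+ OP was 0.43 ± 0.088 and that from Lepr+ OP to preOB 0.97 ± 0.15 on the log2(CPM + 1) scale (mean ± SD, n = 8 mice), each in 8 of 8 mice (exact permutation test of the signs within mice, two-sided, p = 0.0078, the lowest value possible with 8 mice, and 0.0497 after adjustment over the 140 neighbouring pairs compared). Adjustments over such pairs cover only the members, which were chosen with results of these data known. GPC, the cartilage cells, had 132, 148 and 174 CPM.

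H2-D1 and B2m followed the same course through the lineage. H2-D1 averaged 5454 ± 499 CPM in Lepr+ MSC (SD, n = 8), 4286 ± 587 in Lepr+ OP, 2600 ± 356 in preOB and 1005 ± 249 in OB. B2m averaged 4984 ± 682, 4458 ± 405, 2876 ± 373 and 1256 ± 304 CPM in these cells, and its step from Lepr+ MSC to Lepr+ OP was small (0.16 ± 0.10 on the log2 scale) although present in 8 of 8 mice. Between their highest and lowest cell types the means spanned 39.0-fold for H2-K1, 56.1-fold for H2-D1 and 52.7-fold for B2m, with Lepr+ MSC at the top and a chondrocyte class at the bottom each time. The chondrocyte values may include free RNA from other cells, as set out below.

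Endothelial cells had means of H2-K1 and B2m near those of preOB cells. Their mean of H2-D1 was lower (1829 against 2600 CPM in preOB). The haematopoietic classes had lower means of the heavy chains than either. Endothelial H2-K1 averaged 1816 ± 452 CPM and B2m 2991 ± 816 (SD, n = 8), with the 13-week control of replicate 1 the highest at 2841 and 4906 CPM. Haematopoietic progenitors averaged 964 CPM of H2-K1, granulocytes or monocytes 1001 (7 mice), erythroid cells 423 and megakaryocytes 398. Neighbours in the order often did not pass the test. In 22 of 140 neighbouring pairs all 8 mice had the same direction and the test passed, and in the remaining pairs it did not. The 22 were all at the smallest possible p (exact permutation p = 0.0078, adjusted 0.0497). Pairs compared in fewer mice could not reach that p, so a pair that did not pass is not shown to be equal. In osteoblasts CPM is read against a library of which the 16 OB markers alone took 97006 to 189797 CPM, so the CPM of other genes depends on this share too. The size of its effect on the members was not tested.

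**Figure D1:**
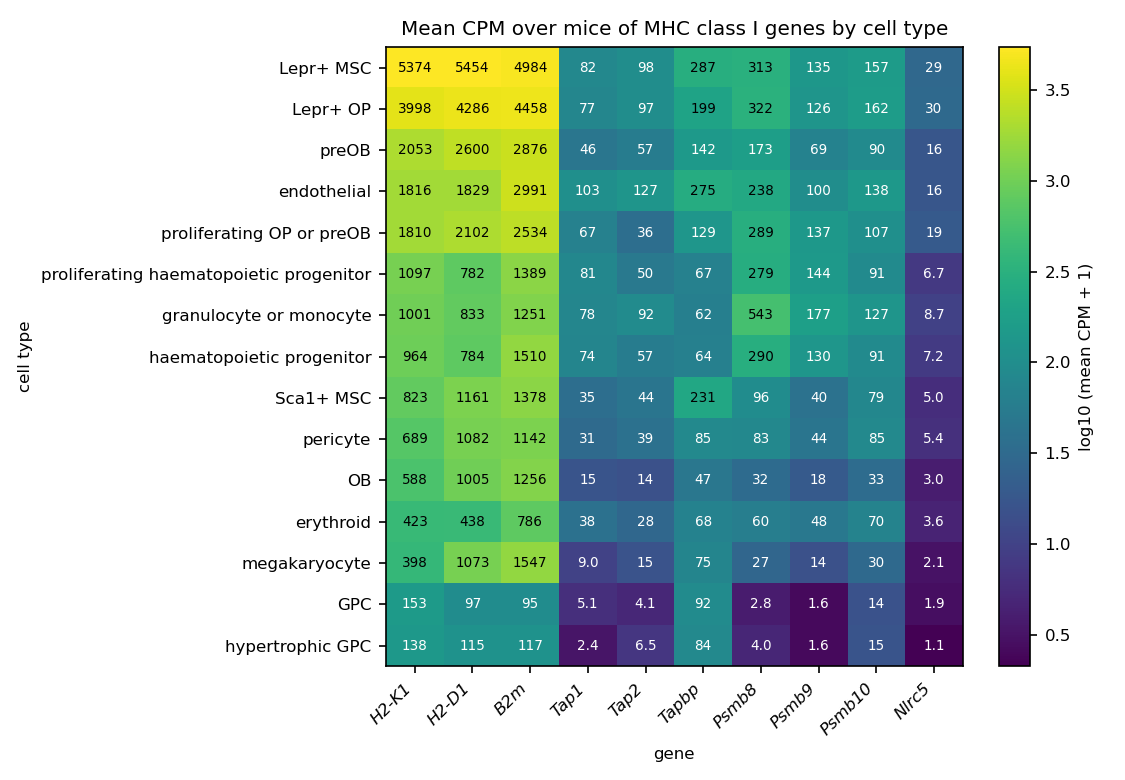
Mean CPM over mice of the 10 MHC class I genes (columns) in 15 cell types (rows, ordered by H2-K1), with colour on a log10 axis of mean CPM + 1 and the mean printed in each cell. H2-K1 runs from 5374 CPM in Lepr+ MSC to 138 CPM in hypertrophic GPC, whereas Psmb8 peaks in the precursor-like class of granulocytes or monocytes at 543 CPM.

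The low values in chondrocytes were set against free RNA in the droplets, which gives UMIs in cells that do not express a gene. The Lepr+ MSC markers had in GPC a median of 0.194% of their Lepr+ MSC level. Other marker lists, each against its own class, had medians in GPC of 0.144% (endothelial), 0.484% (erythroid) and 2.75% (OB). The 7 members with a mean of over 100 CPM in Lepr+ MSC had a median of 1.90% there, from 0.905% for Psmb8 to 31.9% for Tapbp. The single stromal markers ranged from 0.102 to 3.43%, a range that Tapbp and Psmb10 (9.26%) exceeded and in which H2-K1 (2.84%), H2-D1, B2m, Psmb8 and Psmb9 (1.18%) lay. Bglap, the osteocalcin gene of osteoblasts, was present in every other cell type at medians of 618 to 11500 CPM.

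The peptide transporter was ordered differently, with endothelial cells first. Tap1 had 65.4, 89.2 and 217 CPM in endothelial cells and 53.9, 76.4 and 157 in Lepr+ MSC (lowest, median and highest of 8 mice), and 217 and 157 both came from the 13-week control of replicate 1. Although the ranges overlapped, Tap1 was higher in the endothelial cells of each mouse, by 0.30 ± 0.22 on the log2 scale, and Tap2 by 0.32 ± 0.29 (8 of 8 mice each, exact permutation p = 0.0078, adjusted 0.0497). Both transporter genes were low in OB (15.1 ± 5.17 and 13.9 ± 3.48 CPM), where Tap1 was lower than in pericytes in 8 of 8 mice, by 0.97 ± 0.57.

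Tapbp had the flattest profile of the members. Its mean ran from 287 ± 75.0 CPM in Lepr+ MSC to 46.7 ± 9.45 CPM in OB, a span of 6.15-fold, and chondrocytes (91.7 ± 17.5 CPM in GPC) were above osteoblasts. Sca1+ MSC, a small stromal class of 28 to 170 cells per mouse, had 231 ± 103 CPM, close to the 275 ± 102 CPM of endothelial cells. Across 119 sums of mouse and cell type, the lowest Pearson correlation between 2 members was that of Tapbp and Psmb9 (0.269) and the highest that of Psmb8 and Psmb9 (0.979). Sums from 1 mouse share a library, so these correlations are a description.

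Psmb8 and Psmb9 had their highest means in the precursor-like class of granulocytes or monocytes, and Psmb10 in Lepr+ OP. Psmb8 had 435, 548 and 653 CPM (7 mice) in granulocytes or monocytes, 245, 348 and 391 CPM in Lepr+ OP and 232, 306 and 402 CPM in Lepr+ MSC (8 mice each). OB had 17.6, 31.3 and 54.0 CPM and GPC 1.37, 2.77 and 5.51 CPM of Psmb8, the latter from 90 UMIs in all mice together. The span from the highest to the lowest mean was 192-fold for Psmb8, 111-fold for Psmb9 and 11.2-fold for Psmb10, which was at 162 ± 46.0 CPM in Lepr+ OP. Psmb10 was at 14.5 ± 2.36 CPM in GPC, which leaves it a larger share of its stromal level there than Psmb8 or Psmb9.

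The balance of proteasome subunits was read as UMIs of Psmb8, Psmb9 and Psmb10 over UMIs of Psmb5, Psmb6 and Psmb7. The ratio was 1.54 ± 0.335 in Lepr+ MSC (SD, n = 8), 1.31 ± 0.124 in granulocytes or monocytes (n = 7), 1.30 ± 0.234 in Lepr+ OP and 1.22 ± 0.367 in endothelial cells. It was 0.690 ± 0.139 in preOB, 0.186 ± 0.0767 in OB and 0.0447 ± 0.0109 in GPC. The constitutive subunits had summed means of 394 CPM in Lepr+ MSC, 460 in OB and 437 in GPC, so most of the difference among these 3 cell types came from the immunoproteasome subunits. In OB it averaged 0.129 at 7 weeks and 0.244 at 13 weeks.

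Nlrc5, the transcriptional activator of the class I genes, had few UMIs in every cell type. It had 29.3 ± 10.4 CPM in Lepr+ MSC and 30.2 ± 8.29 in Lepr+ OP, 16.3 ± 5.39 in preOB, 16.5 ± 10.1 in endothelial cells, 3.03 ± 1.24 in OB and 1.87 ± 0.988 in GPC (SD, n = 8). The last value rests on 66 UMIs in all mice together. Granulocytes or monocytes, which had the highest mean of Psmb8, were at 8.67 ± 4.31 CPM of Nlrc5 (n = 7).

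The heavy chains did not keep a constant balance across cell types. The ratio of H2-K1 to H2-D1 UMIs was 0.988 ± 0.058 in Lepr+ MSC and 0.998 ± 0.11 in endothelial cells, 0.793 ± 0.061 in preOB, 0.585 ± 0.059 in OB and 0.371 ± 0.089 in megakaryocytes (SD, n = 8). In OB all 8 mice lay between 0.512 and 0.675 and in Lepr+ MSC between 0.935 and 1.081, without overlap. Haematopoietic progenitors (1.23 ± 0.098) and GPC (1.64 ± 0.376) lay on the other side of 1. The heavy chain genes share much of their sequence, so reads of one could be assigned to another or lost, and the sum of H2-K1 and H2-D1 was therefore also tested where one of them passed.

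**Figure D2:**
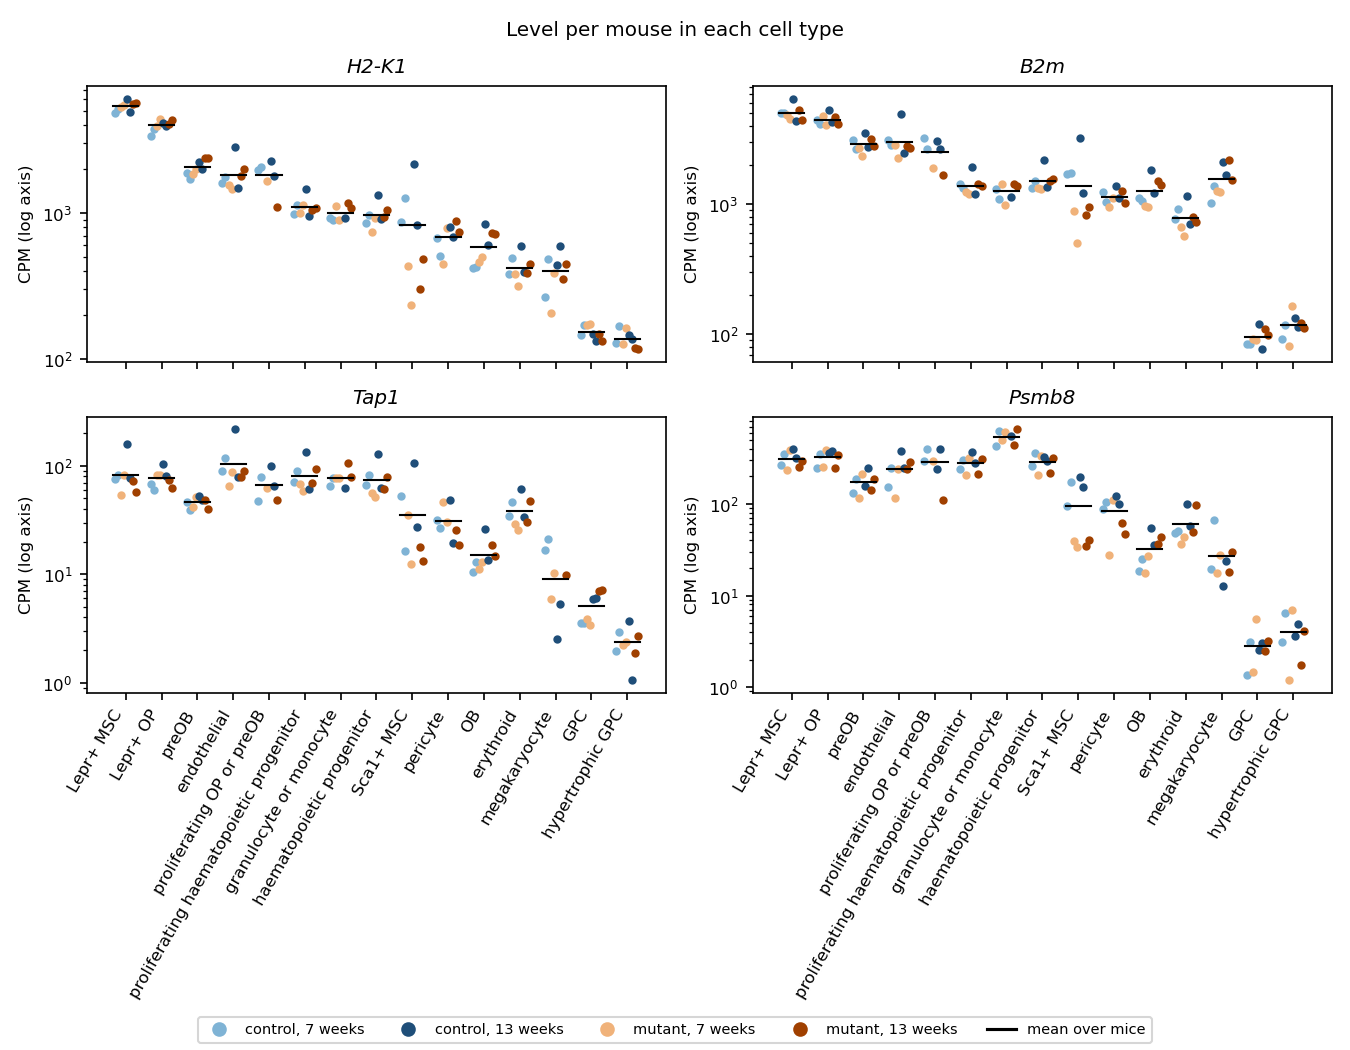
CPM (log axis) of H2-K1, B2m, Tap1 and Psmb8 in each mouse, by cell type, with genotype and age in colour and the mean over mice as a line, and mice at 0 are not drawn. In Sca1+ MSC control and mutant mice do not overlap for H2-K1, at 822 to 2172 CPM in controls and 233 to 485 CPM in mutants.

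Genes that followed the members across cell types were named by the highest Pearson correlation of log2(CPM + 5) over the same 119 sums, among 10080 genes outside the members. For H2-K1 they were Bst2 (0.932), H2-Q4 (0.920), H2-Q6 (0.918), H2-Q7 (0.907) and H2-T22 (0.901), 4 of them class I heavy chains themselves. B2m was most like H2-T23 (0.925), a nonclassical heavy chain, followed by Ifitm3 (0.902), H2-T22 (0.869), Zeb2 (0.860) and Bst2 (0.854). Tap1 was most like the guanylate-binding protein Gbp3 (0.901), then Nmi (0.895), H2-Q7 (0.885), Psme2 (0.874) and Gbp7 (0.866). Psmb8 was most like Psme2 (0.902) and Psme1 (0.882), the subunits of the proteasome activator PA28, then H2-Q7 (0.874), H2-Q6 (0.874) and Zhx1 (0.862). Of these genes, Bst2, Gbp3 and Gbp7 are in the interferon list used next.

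The relation to interferon state was asked cell by cell with 35 interferon-stimulated genes, none of them a member. Each cell was thinned to 2000 UMIs and called interferon-low with 0 to 1, middle with 2 to 4 and high with 5 or more UMIs of the list. Of 24908 OB cells, 21856 (87.7%) were low, 2425 (9.74%) middle and 627 (2.52%) high. The share of high cells per mouse was 1.33, 2.32 and 5.62% (lowest, median and highest) in OB, 6.59, 10.4 and 24.2% in preOB, 26.4, 38.6 and 67.4% in Lepr+ OP and 47.2, 64.5 and 94.9% in Lepr+ MSC. The highest value in each of the 4 was the 13-week control of replicate 1. GPC had 1 high cell of 1952. Their median depths per mouse were 11244 to 29841 UMIs per cell, against 3527 to 8710.5 in Lepr+ MSC, so they need not give the background of such calls in shallower classes. Without thinning the median shares in OB and Lepr+ MSC were 23.9 and 93.3%.

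In osteoblasts the interferon-high cells carried several-fold more transporter and immunoproteasome RNA than the interferon-low cells of the same mouse. Psmb8 averaged 26.5 ± 8.47 CPM in low and 192 ± 55.0 CPM in high OB cells (SD, n = 8), Psmb9 14.2 ± 6.48 and 118 ± 36.7, Psmb10 28.4 ± 6.57 and 169 ± 45.1, and Tap1 12.4 ± 3.03 and 89.2 ± 20.4. On the log2(CPM + 5) scale, which understates low genes, the high-to-low ratio was 2.64 ± 0.42 for Psmb8, 2.68 ± 0.47 for Psmb9, 2.36 ± 0.29 for Psmb10, 2.43 ± 0.32 for Tap1, 2.12 ± 0.34 for Tap2 and 1.38 ± 0.53 for Tapbp. The heavy and light chains differed less, H2-K1 by 0.84 ± 0.22 (595 against 1066 CPM), B2m by 0.52 ± 0.19 and H2-D1 by 0.35 ± 0.23.

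All 9 of these were higher in the high cells of 8 of 8 mice (exact permutation test of the signs, two-sided, p = 0.0078, which no test of 8 mice can undercut, and 0.0335 after adjustment over the 90 pairs of member and cell type tested). They also passed without replicate 1 of the 13-week controls, whereas 0 passed without any 1 of the other 7 mice, and the members' median ratio was 1.66 to 1.85 in these 8 runs. With fewer mice the smallest possible p is higher, and the tests of all cell types share an adjustment. Replicate 1 of the 13-week controls was already absent from the Lepr+ MSC and endothelial tests, so leaving it out raised that limit in fewer tests. A count of 0 therefore does not measure the stability of the ratios. Nlrc5, with few UMIs, was not separated in the thinned cells (0.66 ± 1.09, higher in 6 of 8 mice, exact permutation p = 0.133, adjusted 0.221). Counted on all UMIs of the same cells, 10 of 10 members, Nlrc5 included, were higher in every mouse, where 3.44% of the 8176 genes counted were. The high OB cells had much the same marker content as the low ones, with medians over mice of 123727 (low) and 125923 (high) CPM for the OB list, 113 and 144 for the Lepr+ MSC list, 20.7 and 22.1 for the endothelial list and 4.76 and 4.77 for the macrophage list, and with median depths of 16254.5 and 15764.25 UMIs per cell.

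The same split gave smaller ratios in Lepr+ MSC, where far more cells are interferon-high, than in OB, a difference that passed within mice for 8 of the 10 members. The share of all genes with such a difference is not given here. In Lepr+ MSC (7 mice, since the 13-week control of replicate 1 had fewer than 10 low cells), H2-K1 was 4340 ± 311 CPM in low and 5526 ± 375 CPM in high cells, a log2 ratio of 0.35 ± 0.12. The members that passed there were H2-K1, H2-D1 (0.34 ± 0.20), Tap1 (0.79 ± 0.65), Psmb8 (0.79 ± 0.52), Psmb9 (1.16 ± 0.67) and Psmb10 (0.98 ± 0.44), each in 7 of 7 mice (exact permutation p = 0.0156, the smallest possible, adjusted 0.0469). Of the 10 members, 6 passed in preOB, with Psmb10 (1.01 ± 0.64), Psmb8 (0.94 ± 0.41) and Tap2 (0.93 ± 0.51) leading, 6 in Lepr+ OP, led by Tap1 (1.60 ± 1.39), and 3 in endothelial cells, H2-K1, H2-D1 and Psmb10. With cells thinned to 1000 UMIs in place of 2000, 0 members passed in preOB and endothelial cells and 2 in Lepr+ MSC, and the share of all genes at that depth is not given. Pericytes (4 mice with enough cells in both bins, smallest possible p = 0.125 in an exact permutation test) had ratios of 1.53 ± 0.34 for H2-K1, 1.28 ± 0.48 for B2m and 1.95 ± 0.65 for Psmb8. Sca1+ MSC (2 mice, smallest possible exact p = 0.5) had 1.23 ± 1.14, 0.67 ± 0.10 and 2.95 ± 3.4.

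On all UMIs, 9 of 10 members were higher in the high cells of every mouse in preOB (2.02% of all genes counted), 7 of 10 in Lepr+ OP (1.52%), 7 of 10 in Lepr+ MSC (3.47%) and 6 of 10 in endothelial cells (1.82%). The ratio was compared between cell types within mice, for the members alone. That of Psmb8 was larger in OB than in preOB by 1.70 ± 0.62 and that of Tap1 by 1.82 ± 0.99, in 8 of 8 mice each (exact permutation p = 0.0078, adjusted 0.024 over 20 such differences). For H2-D1 the ratios differed by -0.05 ± 0.29 (3 of 8 mice larger, exact permutation p = 0.648, adjusted 0.721). Since a high cell in OB and a high cell in Lepr+ MSC meet the same limit of 5 UMIs but sit at different places in their own class, these are ratios between bins and not responses to a dose.

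**Figure D3:**
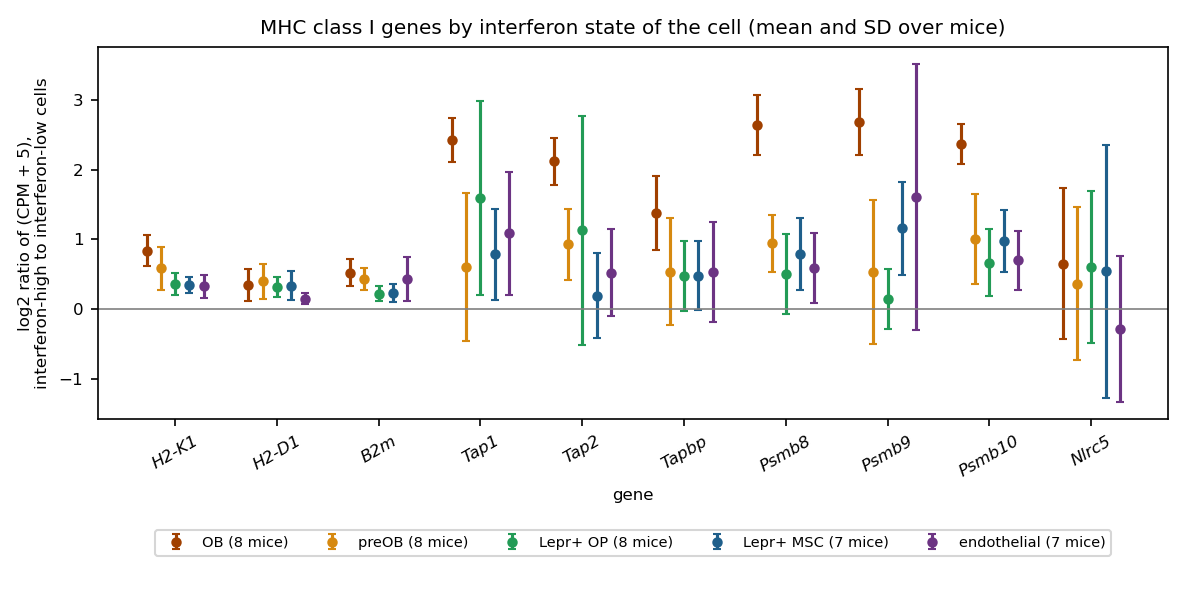
Log2 ratio of CPM + 5 in interferon-high over interferon-low cells (vertical axis) for each member in 5 cell types, as the mean over 7 or 8 mice with bars of 1 SD. In OB the transporter and immunoproteasome genes lie between 2.12 and 2.68, while H2-D1 lies between 0.15 and 0.40 in all 5 types.

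Mutant and control mice were compared on UMIs summed per mouse and cell type, with the mouse as the replicate and 4 control against 4 mutant mice averaged over both ages. In 15 cell types, 146 tests of a member were made and 2 passed at an adjusted p of 0.05 (edgeR quasi-likelihood test, Benjamini–Hochberg over all genes of a cell type), where 0.293% of all 141849 gene tests did. Both were in Sca1+ MSC, where 35 of 5312 genes passed (0.659%). At an unadjusted p under 0.05 there were 21 of the 146 (14.38%), against 5.49% of all tests, and DESeq2 called 4 (0.47% of all tests), which are the same 2 and B2m and Psmb9 in Sca1+ MSC.

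In Sca1+ MSC, Psmb8 and H2-K1 were lower in mutant mice than in controls. Psmb8 was at 95.9 and 172 CPM in the controls of 7 weeks and 198 and 153 CPM in those of 13 weeks, against 39.4 and 33.8, and 34.9 and 40.1 CPM in the mutants. All 4 mutants lay under all 4 controls, and the fold change was -1.96 on the log2 scale (SE 0.27, edgeR adjusted p = 0.0206). H2-K1 was at 868, 1273, 2172 and 822 CPM in the controls and at 430, 233, 303 and 485 CPM in the mutants, a log2 fold change of -1.72 (SE 0.34, edgeR adjusted p = 0.0473). B2m was at 1701, 1741, 3196 and 1221 CPM against 883, 506, 828 and 949 CPM, also without overlap, and did not pass (-1.21, adjusted p = 0.0954).

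With the 2 mice of an age and replicate number as a block, Psmb9 also passed there (-1.995, adjusted p = 0.0207 by edgeR, where 2.2% of genes passed). The other members tested there pointed the same way without passing in the fit without this block, Psmb9 at -1.89 (adjusted p = 0.0514), Psmb10 at -1.18 (0.223), H2-D1 at -1.14 (0.196), Tap1 at -1.35 (0.326), Tap2 at -0.86 (0.516) and Tapbp at -0.61 (0.500) by edgeR. Nlrc5, with 16 UMIs in all mice together, was under the filter on low counts. The 9 tested had a median of -1.21 beside 0.0019 for all genes, and of -0.77 without replicate 1 of the 13-week controls. In 5 of the 9 members with a mean of at least 10 CPM every mutant mouse lay below every control mouse (B2m, Psmb10, H2-K1, Psmb9 and Psmb8), as it did for 3.57% of 8168 genes. The ratio of immunoproteasome to constitutive subunits was 0.856 ± 0.544 in controls and 0.185 ± 0.0553 in mutants (SD, n = 4 each).

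Among further genes of the pathway and of the interferon list, 2 passed there. The 7 other heavy chains tested were all below 0 (median -1.85) and H2-Q7 passed (-2.30, SE 0.34, edgeR adjusted p = 0.0206). The 20 interferon genes tested were all below 0 (median -2.06), and Xaf1 passed (-2.08, adjusted p = 0.0469 by edgeR). None of the 7 loading and trimming genes, 5 proteasome activator and constitutive genes, 13 regulators or 2 class II genes tested passed, with 1, 1, 4 and 1 of them at an unadjusted p under 0.05, where 10.9% of all genes were.

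Other properties of the class moved with genotype. The 16 OB markers summed to 2813 to 4357 CPM in the controls and 5967 to 17059 CPM in the mutants, the 14 Sca1+ MSC markers to 5952 to 13373 against 3799 to 5767 CPM, and the 15 Lepr+ MSC markers to 1586 to 5485 against 994 to 2095 CPM. Ly6a, which encodes Sca1, was at 255 to 1299 CPM in controls and 63.8 to 339 CPM in mutants. Cells with more Sca1+ MSC than OB marker UMIs made up 58.06 to 92.31% of the class in controls and 29.55 to 51.76% in mutants. In those cells alone, an alternative added after the data had been seen, Psmb8 was at -1.96 (edgeR adjusted p = 0.0385) and H2-K1 at -1.39 (adjusted p = 0.243). Interferon-high cells were 25.4 ± 12.5% of the class in controls and 4.18 ± 2.94% in mutants (SD, n = 4 each, two-sided exact permutation p = 0.0286, the smallest possible, adjusted 0.429 over 15 cell types). In interferon-low cells H2-K1 was 867 ± 770 CPM in controls and 280 ± 82.8 CPM in mutants (exact permutation p = 0.0571, adjusted 0.952), and Psmb8 112 ± 96.8 and 23.02 ± 15.7 CPM with overlap (exact permutation p = 0.6, adjusted 0.981). What part these properties have in the lower Psmb8 and H2-K1 was not tested, and fewer cells of a kind and less RNA per cell cannot be told apart in these sums.

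**Figure D4:**
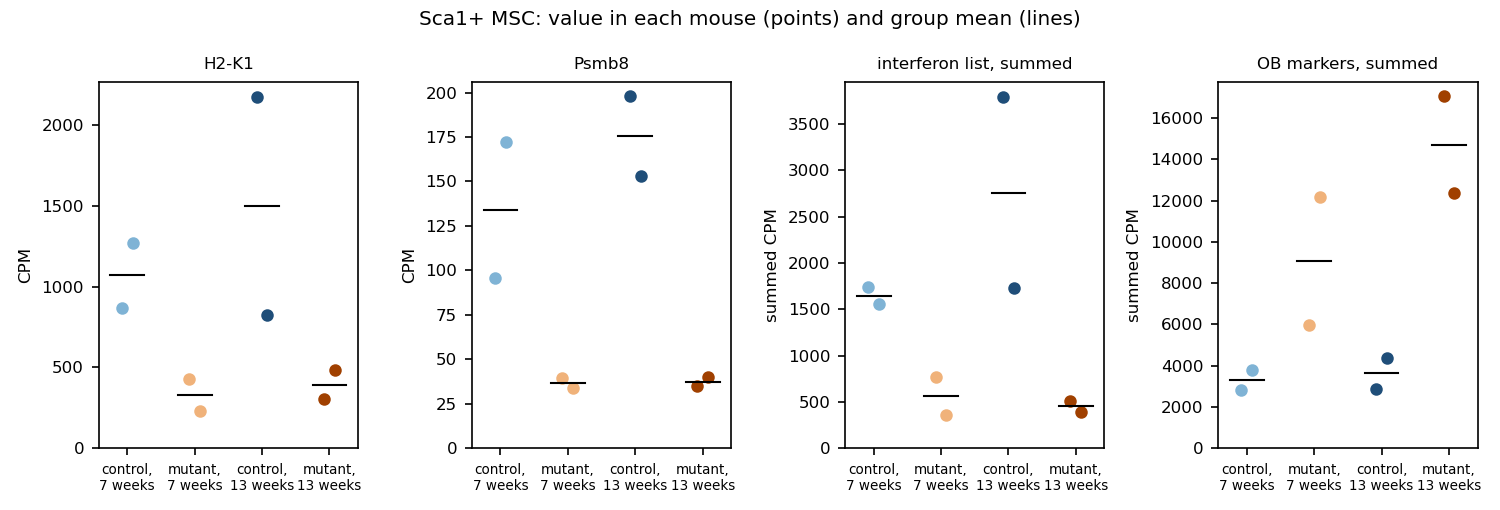
H2-K1 and Psmb8 in CPM, and the interferon list and the OB markers in summed CPM, in Sca1+ MSC of each mouse (points) with the mean of each group of 2 mice (lines). The 4 mutants lie below the 4 controls for H2-K1, Psmb8 and the interferon list and above them for the OB markers.

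The Psmb8 call was lost when any of 3 mice was left out (either 7-week control, or replicate 2 of the 7-week mutants, with adjusted p-values of 0.053 to 0.130) and the H2-K1 call when any of 5 was, among them replicate 1 of the 13-week controls (-1.35, edgeR adjusted p = 0.0521, against -1.90 and 0.0125 for Psmb8 without it). The sum of H2-K1 and H2-D1 did not pass (-1.37, adjusted p = 0.107 by edgeR). In simulated counts of this class, with its 28 to 170 cells per mouse, 1.68% of genes changed 2-fold were recovered, compared with 79.49% in Lepr+ MSC and 82.32% in OB. Among the genes called in these simulations, 6.06% in Lepr+ MSC and 10.44% in OB had not been changed.

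At each age taken alone no member passed in any cell type in the main edgeR fit. That fit used all cells of a type and the filter on low counts, with no replicate block and no mouse left out. Some other settings, given in the section on processing, did call members at 1 age. At 7 weeks 0 of 146 member tests passed by edgeR and 0 by DESeq2, with 7 (4.79%, against 3.44% of all gene tests) at an unadjusted p under 0.05. Of all gene tests 0.0381% passed at 7 weeks, among them 0.00866% in Lepr+ MSC, 0.192% in Lepr+ OP, 0.0743% in preOB and 0.151% in OB. At 13 weeks 0 passed by edgeR and 2 by DESeq2 (0.185% of all tests), with 19 (13.01%, against 4.17% of all gene tests) at an unadjusted p under 0.05. Of all gene tests 0.079% passed, among them 0.0377% in Sca1+ MSC, 0.0433% in Lepr+ MSC, 0.154% in Lepr+ OP, 0.121% in preOB and 0.282% in OB. In Sca1+ MSC, Psmb8 was at -1.80 (adjusted p = 0.657) at 7 weeks and -2.12 (adjusted p = 0.0569) at 13 weeks, and H2-K1 at -1.68 and -1.76 by edgeR. With the replicate block, 2 passed in Sca1+ MSC at 13 weeks, Psmb8 (-2.12, adjusted p = 0.0184) and Psmb9 (-2.31, 0.0347), and 1 in Lepr+ OP, Tapbp (-0.67, adjusted p = 0.0285, against -0.69 and 0.660 without the block, by edgeR), where 1.62% and 0.902% of genes passed. The difference of the genotype effect between the ages passed for 0 of 146 by edgeR and by DESeq2 (0.00916% of all gene tests by edgeR). At an unadjusted p under 0.05 there were 3 (2.05%, against 1.97% of all gene tests), and the difference was -0.32 (SE 0.53) for Psmb8 and -0.08 (SE 0.66) for H2-K1 in Sca1+ MSC.

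The level in Sca1+ MSC was also set against that in Lepr+ MSC of the same mouse, and the genotypes did not pass after adjustment. The log2 level of H2-K1 in Sca1+ MSC minus that in Lepr+ MSC was -2.13 ± 0.49 in controls and -3.97 ± 0.48 in mutants, and for Psmb8 it was -1.11 ± 0.21 and -2.80 ± 0.39 (SD, n = 4 each). The mutant was lower in all 16 pairs of a mutant and a control mouse for 5 of the 10 members (H2-K1, H2-D1, B2m, Psmb8 and Psmb9), as it was for 3.33% of 8442 genes with a mean of at least 10 CPM (exact permutation p = 0.0286, the smallest possible, adjusted 0.0571 over 10 tests).

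In the stromal and osteoblast classes with more cells, no member passed between the genotypes averaged over ages in the fit without the replicate block. In Lepr+ MSC, where 0.191% of genes passed, H2-K1 was at 4811, 5164, 6076 and 4879 CPM in controls and 5324, 5493, 5588 and 5657 CPM in mutants, with overlap. The members' log2 fold changes had a median of -0.14 there, from -0.53 for Tap1 (SE 0.22, edgeR adjusted p = 0.662) to 0.21, and without replicate 1 of the 13-week controls the median was 0.08 and Tap1 was at -0.22. Tap1 was at 76.1, 82.5, 157 and 76.6 CPM in controls and 53.9, 82.9, 71.8 and 57.4 CPM in mutants. The medians were -0.04 in Lepr+ OP (0.681% of genes passed), -0.02 in preOB (0.678%) and 0.02 in OB (1.3%), and without that mouse they were 0.032, 0.068 and 0.25. In OB the highest values were those of Tap2 (0.32, SE 0.14, edgeR adjusted p = 0.430) and H2-D1 (0.30, SE 0.13, adjusted p = 0.400). With the replicate block both passed there (0.34, adjusted p = 0.0477, and 0.31, 0.0153, by edgeR), in a fit in which 9.53% of the 14542 genes passed. In endothelial cells, where 0 genes passed by edgeR and 303 had an unadjusted p under 0.05, the members had a median of -0.24 with 10 of 10 below 0, and without replicate 1 of the 13-week controls a median of -0.058 with 6 of 10 below 0.

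Nlrc5 had lower means in mutants in several cell types without passing in any. In preOB it was at 24.1, 13.1, 23.4 and 16.7 CPM in controls and 7.70, 13.5, 16.3 and 15.9 CPM in mutants, with overlap, and the fold change was -0.59 (SE 0.25, edgeR adjusted p = 0.502). It was -0.41 (SE 0.21, adjusted p = 0.786) in Lepr+ MSC and -0.39 (SE 0.22, adjusted p = 0.591) in OB by edgeR, and was above 0 in GPC (0.45) and in granulocytes or monocytes (0.36). In interferon-low cells alone Nlrc5 was below 0 in 5 and above 0 in 5 of 10 cell types. It had 20.9 ± 2.45 CPM in controls and 10.99 ± 0.563 CPM in mutants in preOB, 4.14 ± 0.256 and 2.79 ± 0.851 in OB, 8.32 ± 5.24 and 1.60 ± 1.94 in haematopoietic progenitors and 22.2 ± 16.0 and 21.6 ± 3.24 in Lepr+ OP (SD, n = 4 each). The first 3 were at the smallest possible p (exact permutation p = 0.0286) and did not pass after adjustment over 100 tests (0.714). The only other of these tests at that p was Tap1 in Lepr+ OP, which was higher in mutants (22.1 ± 18.4 CPM in controls and 57.0 ± 12.4 CPM in mutants). The share of all genes without overlap in interferon-low cells is not given here.

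Age was the other factor of the design, and most of the members' calls with it were in OB. In the 15 cell types together, 5 of 146 member tests passed between 13 and 7 weeks, averaged over genotypes (edgeR, 1.28% of all gene tests), 4 of them in OB, where 263 of 14542 genes passed (1.81%). At an unadjusted p under 0.05 there were 31 of 146 (21.23%, against 10.59% of all tests), and DESeq2 called 9 (1.47% of all tests). Mice of 1 age may also share days of preparation, which the sources used here do not give, so age and any such batch cannot be told apart.

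The genes that rose in OB were the immunoproteasome subunits and a heavy chain. Psmb9 was at 8.47, 12.1, 10.5 and 14.5 CPM in the 7-week mice (controls, then mutants) and 31.8, 19.1, 24.6 and 26.0 CPM in the 13-week mice, a log2 fold change of 1.17 (SE 0.18, edgeR adjusted p = 0.0131). Psmb8 was at 18.7, 24.98, 17.6 and 27.2 against 54.0, 35.4, 36.7 and 43.4 CPM (0.94, SE 0.17, adjusted p = 0.0250 by edgeR). The ages did not overlap for either gene. Psmb10 was at 24.3, 31.1, 19.4 and 28.1 against 50.8, 44.3, 31.4 and 37.2 CPM (0.66, SE 0.12, edgeR adjusted p = 0.0309).

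H2-K1 rose from 422, 430, 459 and 497 to 837, 601, 732 and 722 CPM (0.68, SE 0.13, edgeR adjusted p = 0.0341). The other members tested were H2-D1 at 0.59 (adjusted p = 0.0520), Tap2 at 0.56 (0.0924), B2m at 0.54 (0.131), Tap1 at 0.63 (0.168), Nlrc5 at 0.61 (0.234) and Tapbp at 0.33 (0.362). The median of the 10 was 0.62 beside 0.0041 for all genes. In 8 of the 9 members with a mean of at least 10 CPM every 7-week mouse lay below every 13-week mouse, as in 3.52% of 6219 genes, and the exception was Tapbp.

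**Figure D5:**
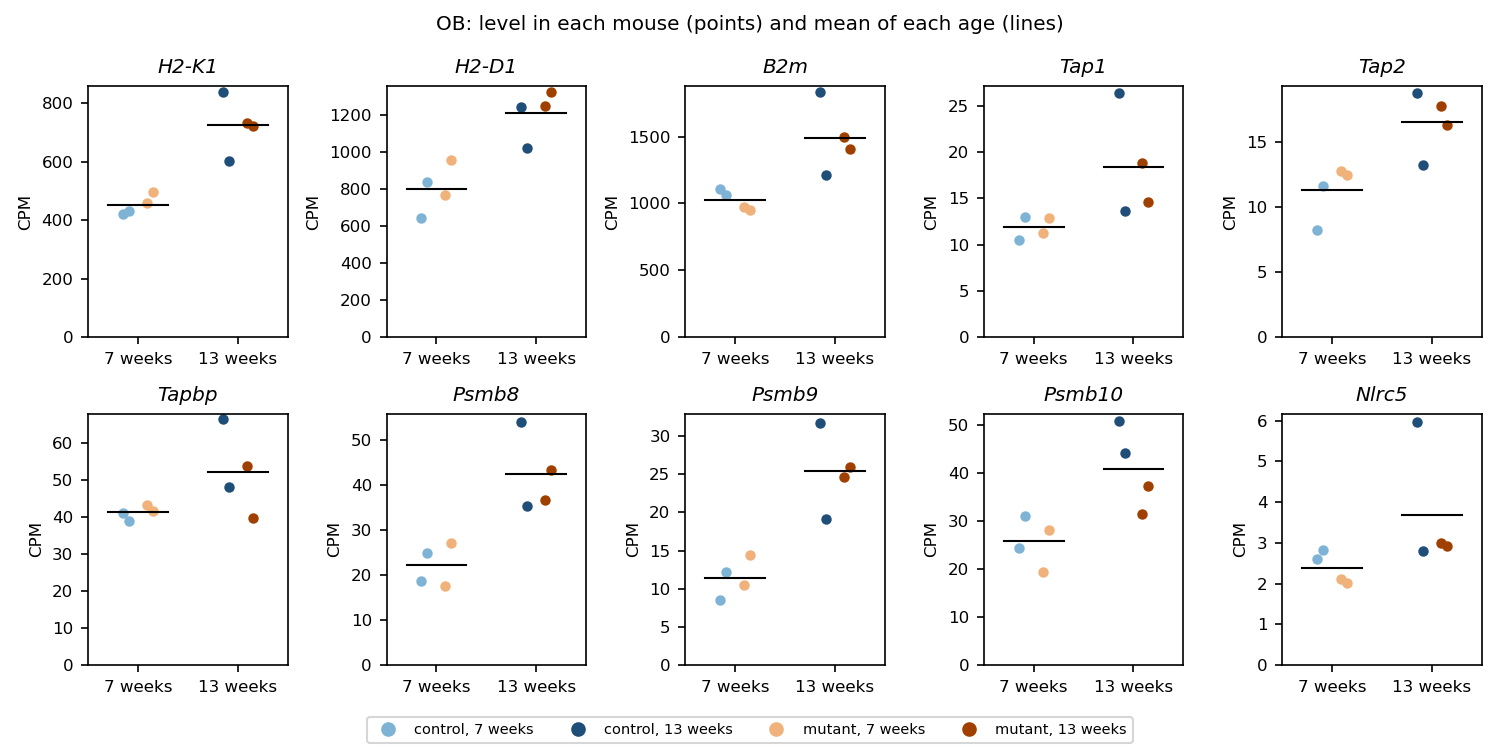
CPM of each member in OB of each mouse (points) at 7 and 13 weeks, with genotype in colour and the mean of each age as a line. For Psmb9 the 4 younger mice lie between 8.47 and 14.5 CPM and the 4 older ones between 19.1 and 31.8 CPM.

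Other heavy chains rose with them in OB, and most other genes of the pathway did not pass. Of 9 other heavy chains tested, 4 rose, H2-Q7 (0.90), H2-Q6 (0.87), H2-M3 (0.80) and H2-Q4 (0.74), and of 34 interferon genes 2 did, Gbp4 (1.32) and Ifi47 (0.92). None of 8 loading and trimming, 5 proteasome activator and constitutive, 16 regulator or 5 class II genes passed by edgeR, with 2, 2, 4 and 0 at an unadjusted p under 0.05, where 14.1% of all genes were. The interferon list summed to 230 to 403 CPM in OB at 7 weeks and 284 to 666 at 13 weeks, with overlap. The Lepr+ MSC markers summed to 92.4 to 114 against 116 to 178 CPM and the endothelial markers to 22.3 to 35.03 against 13.3 to 19.8 CPM in OB. The part of these in the higher class I RNA was not tested.

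Of these calls, that of Psmb9 held without each of the 8 mice in turn (0.95 to 1.33, edgeR adjusted p = 0.00569 to 0.0414). Without replicate 1 of the 13-week controls Psmb9 was at 0.95 (adjusted p = 0.0224), and Psmb8 (0.76, 0.0653), Psmb10 (0.59, 0.101) and H2-K1 (0.53, 0.0967) no longer passed. Psmb8 and Psmb10 each lost their call without any of 6 mice and H2-K1 without any of 7, with adjusted p-values of up to 0.0764, 0.105 and 0.116. The sum of H2-K1 and H2-D1 passed (0.62, adjusted p = 0.0457 by edgeR). In the simulated counts of OB, made for a difference between genotypes, 10.44% of the genes called at the threshold of 0.05 were false.

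In the other cell types 1 member passed between the ages. It was Tap2 in hypertrophic GPC, at 1.63, 3.56, 3.75 and 8.62 CPM at 7 weeks and 8.83, 6.14, 8.77 and 10.4 CPM at 13 weeks (1.21, SE 0.30, edgeR adjusted p = 0.0358, where 5.37% of genes passed, compared with 0.806% in Lepr+ OP and 0.0103% in haematopoietic progenitors), and the ages overlapped. The call was lost without any of 5 mice, including replicate 1 of the 13-week controls (1.06, adjusted p = 0.142). In preOB (2.77% of genes passed), Lepr+ MSC (0.416%) and endothelial cells (1.69%) the members had medians of 0.27, 0.23 and 0.46 and 0 passed by edgeR, with 1, 0 and 5 of 10 at an unadjusted p under 0.05, where 13.7%, 8.2% and 13.2% of all genes were. Without replicate 1 of the 13-week controls the medians were 0.24, 0.011 and 0.32, and 10, 5 and 7 of the 10 members were above 0, where all 10 had been with it. Of the other lists, the heavy chains H2-T23 (0.96) and H2-Q7 (0.64) and the interferon genes Ifit3b (1.74), Ifi44 (1.65), Ifit3 (1.505) and Gbp4 (1.03) were higher at 13 weeks in preOB, and the class II genes Cd74 (2.26), H2-Eb1 (2.23) and H2-Ab1 (1.83) in endothelial cells, where Irf8 (-1.07) was lower. In hypertrophic GPC, H2-M3 (1.19), the trimming enzyme Erap1 (1.00) and Mr1 (0.83) were higher at 13 weeks and the interferon gene Isg15 (-2.04) was lower, in GPC Jak1 was higher (0.78) and H2-DMa lower (-0.80), and in Lepr+ OP H2-T23 was higher (0.70), each at an adjusted p of at most 0.05 by edgeR. Of the same lists, Cd1d1 passed between genotypes in preOB (-1.03, SE 0.20, edgeR adjusted p = 0.0323, where 0.678% of genes passed). In proliferating OP or preOB, where 6 mice had enough cells and each mutant group was 1 mouse whose spread is assumed to be that of the control groups, Cxcl9 passed between genotypes averaged over ages (-2.90, SE 0.63, edgeR adjusted p = 0.0216, 0.329% of genes passing). Isg15 and Iigp1 were lower there in the mutant at 13 weeks (-4.69 and -8.66), and the genotype effect differed between the ages by -5.19 and -9.16. Averaged over genotypes, Isg15 was at -2.35 between the ages. It had 102 and 178 CPM in the 7-week and 212 and 85.7 CPM in the 13-week controls, with overlap. The 7-week mutant had 196 CPM and the 13-week mutant 5.35 CPM, so the age value rests on that mouse. The 13-week mutant mouse had 2 UMIs of Isg15 and 0 of Iigp1, against 208 and 17, and 132 and 4, in the 13-week controls.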

How the data were processed

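Single cells of 8 female mice were captured with 10x 3′ v3 chemistry. The authors made the deposited counts with Cell Ranger 6.1.2 on mm10 (per the labels' processing notes), as 1 matrix of UMI counts per gene and barcode for each mouse, with no normalization. From these counts, barcodes with 200 to 6000 genes and at most 10% mitochondrial UMIs were kept, and called doublets (9.67 to 11.3% per library) were left out. Libraries shared 11 to 25 barcodes per pair. Cells were integrated by reciprocal PCA (Seurat 5.3.0, 2000 variable genes without the members or interferon genes, 30 components) and clustered with leidenalg 0.10.2 at resolution 1. Clusters were named by at least 3 markers at 2-fold, and shallow or unnamed clusters held 7.60 to 28.3% of the cells of a mouse.

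Sums of UMIs over the cells of a type in 1 mouse (at least 10 cells) were tested with edgeR 4.0.16 (TMM, quasi-likelihood, Benjamini–Hochberg over all genes of a cell type, threshold 0.05), and with DESeq2 1.42.0 as an alternative. Interferon state was read after thinning each cell to 2000 UMIs. Tests within or between mice were exact permutation tests (scipy 1.17.1). The scripts were tested on simulated counts. The members and gene lists were chosen with earlier results of these data known. The genes named were the members, the called genes of the lists and the 5 most alike genes of 4 members. Mice are separate animals. Alternatives were another filter, tool, clustering, mitochondrial limit, a sum of H2-K1 and H2-D1, a replicate block and each mouse left out. UMIs of near-identical heavy chain copies may be split or lost by the counting. One promoter motif searched is not reported here.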

Additional observations from a re-analysis of the deposited data

Results flagged for a closer look

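The ratio between interferon-high and interferon-low cells differed between cell types for 14 pairs of member and cell type, in a test of the difference within mice. Only the members were tested and the share of all genes is not given, so the count is not a result about the members alone. Between OB and preOB (8 mice) the log2 ratio was larger in OB by 1.82 for Tap1, 1.19 for Tap2, 1.7 for Psmb8, 2.14 for Psmb9 and 1.35 for Psmb10, in 8 of 8 mice each (exact permutation p = 0.0078, adjusted 0.024 over 20 differences), and by 0.84 for Tapbp in 7 of 8 mice (exact permutation p = 0.0312, adjusted 0.0446). Between OB and Lepr+ MSC (7 mice) it was larger in OB by 0.54 for H2-K1, 0.32 for B2m, 1.65 for Tap1, 1.93 for Tap2, 0.87 for Tapbp, 1.91 for Psmb8, 1.57 for Psmb9 and 1.44 for Psmb10, in 7 of 7 mice each (exact permutation p = 0.0156, the lowest possible, adjusted 0.024).

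The differences that did not pass were those of H2-K1 between OB and preOB (0.25, exact permutation p = 0.0547, adjusted 0.0729), of H2-D1 and Nlrc5 in both pairs and of B2m between OB and preOB.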

How the results depend on the processing

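Under other settings 446 mean levels stayed within 1 SD of the value reported and 4 moved further, all with a mitochondrial limit of 5%, and no fold change of a called member changed sign. Between genotypes averaged over ages, the 2 members called in Sca1+ MSC became 4 with DESeq2 (1.73% of all genes), 6 without the filter on low counts (2.01%) and 1 with the summed heavy chains, a mitochondrial limit of 5%, all variable genes kept or only cells with more Sca1+ MSC than OB marker UMIs, the last chosen after seeing the data. Without the filter, 1 was called there at 7 weeks (0.457%) and 4 at 13 weeks (1.86%), and 1 in Lepr+ MSC at 13 weeks (0.722%). At 13 weeks in Sca1+ MSC, DESeq2 called 2 (1.24%) and the marker-selected cells gave 1 (0.763%). The members' median in proliferating OP or preOB was -0.70 with a mitochondrial limit of 5% (-0.33 for age). For age, DESeq2 called 8 (3.13% of all genes) and the unfiltered fit 9 (4.4%) in OB, the unfiltered fit 3 in endothelial (2.89%) and 1 in erythroid cells (0.538%), and the 5% limit 0 in hypertrophic GPC. The cause of these changes was not tested.

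For interferon state, thinning to 1000 UMIs left 2 members passing in Lepr+ MSC and 0 in endothelial and preOB cells, and the cause was not tested. A list without guanylate-binding and related genes gave 6 in endothelial cells. With high cells taken from 3 UMIs, 1 passed in endothelial cells, 5 in haematopoietic progenitors and 7 in pericytes, and the OB median ratio was 1.37. Shares of all genes under these settings are not given here, so these counts are not results about the members alone.

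The counts of members in this paragraph are given without the shares of all genes called in the same fits, so they are not results about the members alone. Leaving out each mouse in turn gave 0 to 7 called members in Sca1+ MSC and 0 to 1 in pericytes between genotypes, with a median of -0.56 to -0.30 in proliferating OP or preOB, and at 13 weeks 0 to 5 in Sca1+ MSC and 0 to 1 in proliferating OP or preOB. For age it gave 1 to 8 in OB, 0 to 1 in GPC, endothelial cells, hypertrophic GPC and preOB, and medians of 0.18 to 0.54 in GPC, -0.15 to 0.32 in hypertrophic GPC and -0.31 to -0.0392 in proliferating OP or preOB. For interferon state it gave 0 to 6 in Lepr+ MSC, 0 to 7 in Lepr+ OP, 0 to 9 in OB, 0 to 3 in endothelial cells and 0 to 6 in preOB. The count was above 0 without replicate 1 of the 13-week controls and 0 without any other mouse. That mouse was already absent from the Lepr+ MSC and endothelial tests, whereas leaving out another mouse raises the smallest possible p in those too. A count of 0 therefore does not measure stability.

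Same-numbered mice of an age deviated together with correlations from -0.22 to 0.569, and every pair was over 0.1 in 9 of 13 cell types, OB and Lepr+ OP among them, but not in Sca1+ MSC (0.059 at 7 weeks). The study used sisters, no label ties a number to a litter, and replicate 1 was the deeper library in every group, so the block is an alternative here. With the replicate block, 3 members were called in Sca1+ MSC (H2-K1, Psmb8 and Psmb9) and 2 in OB (H2-D1 at 0.31 and Tap2 at 0.34) averaged over ages, and at 13 weeks 2 in Sca1+ MSC and 1 in Lepr+ OP. The age contrast cannot be fitted with this block.

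Recovery of simulated 2-fold changes was 1.68% in Sca1+ MSC, so a member that did not pass there is not shown to be equal. Depth and the spread between mice were not separated. With 2 mice per group, single ages have little power.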
